A study of Mus musculus with 121 samples.

Results

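The immediate early genes described here are 10 of the 23946 genes in the deposited expression table: Fos, Fosb, Jun, Junb, Ier2, Dusp1, Atf3, Zfp36, Btg2 and Klf6. They were chosen as a family, and each was read in every cell, by the deposited cell state and by the run name in the cell labels, to see how many a cell had on together and whether the on-cells gathered in a state or in a run. The cells were 121 single bone marrow progenitors of C57BL/6 mice, all with the R412X allele of Gfi1, a transcriptional repressor needed for neutrophil development. The labels write this genotype both as Gfi1-R412X/- and as HTZ. Marrow from crushed hindlimbs was enriched on CD117 beads and sorted, and single cells were captured and lysed on the Fluidigm C1 system. The population labelled CD11b+ GMP-P had 46 cells, all of run name 073117. The population labelled GMP had 75 cells: 13 of 2 run names (July31 and Jul31_2017, "late July GMP") and 62 of run name R412X-GMP ("other-run GMP"). The labels do not say what a run name stands for; read as a date, 073117 is the day that July31 and Jul31_2017 also name, while R412X-GMP carries no date. No run name held both populations, so population and run name cannot be told apart, and cells whose names share that date are set side by side in the contrast with late July GMP but not in that with other-run GMP. The labels name no animal, and each population is therefore 1 sample without replicates: no p-value was computed, an SD is the spread over cells, and an interval covers counting error only. Wild type cells were not analysed here.

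Immediate early genes are transcribed within minutes of a signal, without new protein synthesis, from promoters that serum response factor, ternary complex factors and CREB or ATF proteins occupy beforehand. Fos and Jun proteins pair to form the transcription factor AP-1, while products such as Dusp1 and Zfp36 shut the response down again. Their mRNAs are short-lived, and the genes also respond to the handling of cells in many tissues. The time from marrow to capture is not stated in the labels.

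Stretches of the member promoters that hold one kind of letter string are shown here as a description from outside the expression table. The RefSeq promoter table (build GRCm38.p6) held the 250 bases before the start of 9 of the 10 members, all but Ier2. The strings were chosen after the member sequences had been read, and each was searched on both strands. The CRE, TGACGTCA, to which CREB and ATF proteins bind, stood before Btg2 and Dusp1, and in 1.55% of all 32851 promoters. The shorter TGACG, which the full CRE contains on both strands, stood before Btg2, Atf3, Fosb, Junb, Fos and Dusp1, against 17.8% of all promoters. The CRE-like TGACATCA stood before Jun and Klf6, against 2.93%. Either of the shorter TGACG and TGACATCA was thus present in 8 of 9 member promoters and in 20.4% of all. Since the strings were picked from these same member sequences, a high count follows from the choice and is no result about the members. TGANTCA, the AP-1 motif, was in 0 of 9 and in 6.75% of all, and a CArG box, the site of serum response factor, stood before Zfp36 and in 1.47% of all. Only these letter patterns within 250 bases of the start were counted, so other or more distant sites of these factors are not covered. In the stretches below, read 5′ to 3′ on the strand of the gene, capitals mark the CRE, TGACG in either direction, and TGACATCA.
Btg2: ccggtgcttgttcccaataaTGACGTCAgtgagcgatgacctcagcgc
Dusp1: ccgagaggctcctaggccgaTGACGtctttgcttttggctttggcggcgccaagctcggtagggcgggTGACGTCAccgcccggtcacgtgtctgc
Fos: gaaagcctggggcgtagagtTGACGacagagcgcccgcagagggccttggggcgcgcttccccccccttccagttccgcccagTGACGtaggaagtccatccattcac
Fosb: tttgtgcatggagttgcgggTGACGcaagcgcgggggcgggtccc
Junb: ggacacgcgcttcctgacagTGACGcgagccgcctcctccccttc
Atf3: ggaagctattaatagcattaCGTCAgc
Jun: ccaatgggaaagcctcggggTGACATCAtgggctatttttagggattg
Klf6: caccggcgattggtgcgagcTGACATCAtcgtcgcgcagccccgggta
These lie at chr1:134079294-134079341 (Btg2, minus strand), chr17:26508588-26508683 (Dusp1, minus), chr12:85473741-85473848 (Fos, plus), chr7:19310081-19310125 (Fosb, minus), chr8:84978830-84978874 (Junb, minus), chr1:191183334-191183360 (Atf3, minus), chr4:95052240-95052287 (Jun, minus) and chr13:5861350-5861397 (Klf6, plus), all upstream of the RefSeq start of the gene. A match describes the letters of a window and does not show that a factor was bound.

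A member was called on in a cell at 1 TPM or more, TPM being a length-scaled share of all transcripts of the cell. TPM keeps no read number, so the depth behind each value is unknown and a member that is off may have been missed. Cells of CD11b+ GMP-P had a median of 2870 genes detected, late July GMP cells 2570 and other-run GMP cells 4521. The 20 most abundant genes of each cell took a median of 35%, 56.9% and 16.5% of its TPM in these sets. Over 10 markers of maturing neutrophils, all on in some CD11b+ GMP-P and late July cells and 7 in some other-run cells, the summed level ran from 1055 to 557962 TPM in CD11b+ GMP-P (median 215476). It ran from 12508 to 539566 TPM in late July GMP (median 453794) and from 0 to 39392 TPM in other-run GMP (median 399). Over 10 monocyte progenitor markers the medians were 86.4, 14.4 and 1582 TPM in the same sets. Over 9 neutrophil progenitor markers they were 41092, 5879 and 45362 TPM, and over 5 erythroid and 4 megakaryocyte markers the median was 0 in every set. Over 5 macrophage markers the summed level ran up to 1085 TPM in CD11b+ GMP-P (median 104), up to 881 TPM in late July GMP (median 42.6) and up to 725 TPM in other-run GMP (median 0). Of these 5, Vcam1 and Slc40a1 were kept and were 1.26 and 2.29 higher in CD11b+ GMP-P than in all GMP, and 0.63 and -0.72 against late July GMP; C1qa was on in 0 cells, C1qb in 1 and Mrc1 in 2. Whether marker levels, depth or run play a part in the values below was not tested. No 2 cells were near-copies, the largest correlation between cells being 0.73.

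Most members were on in most cells of each set. Atf3 was off in most cells of every set, and Junb in most cells of CD11b+ GMP-P and of late July GMP. CD11b+ GMP-P cells had 7.89 ± 1.73 of 10 members on (SD, n = 46 cells; lowest 2, median 8, highest 10). Late July GMP cells had 6.46 ± 2.79 (n = 13; lowest 1, median 7, highest 10) and other-run GMP cells 7.29 ± 1.64 (n = 62; lowest 2, median 8, highest 9). The sets overlapped over nearly their whole ranges, and the differences of means, 1.43 against late July GMP and 0.60 against other-run GMP, were smaller than the SD of the cells. The difference against late July GMP shrank when any TPM above 0 was called on and grew without the Jul31_2017 cells, as given below. At least 7 members were on in 36 of 46 CD11b+ GMP-P cells (78.3%, exact 95% interval 63.6 to 89.1), 7 of 13 cells of late July GMP (53.8%, 25.1 to 80.8) and 48 of 62 other-run cells (77.4%, 65 to 87.1). All 10 were on in 5 CD11b+ GMP-P cells, 2 late July cells and 0 other-run cells. Atf3 was on in 1 of the 62 other-run cells. Cells with 4 or fewer on numbered 2, 3 and 5. For comparison, 10 housekeeping genes had 8.80 ± 1.02, 8.85 ± 0.80 and 9.40 ± 0.69 on per cell in the same sets.

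**Figure D1:**
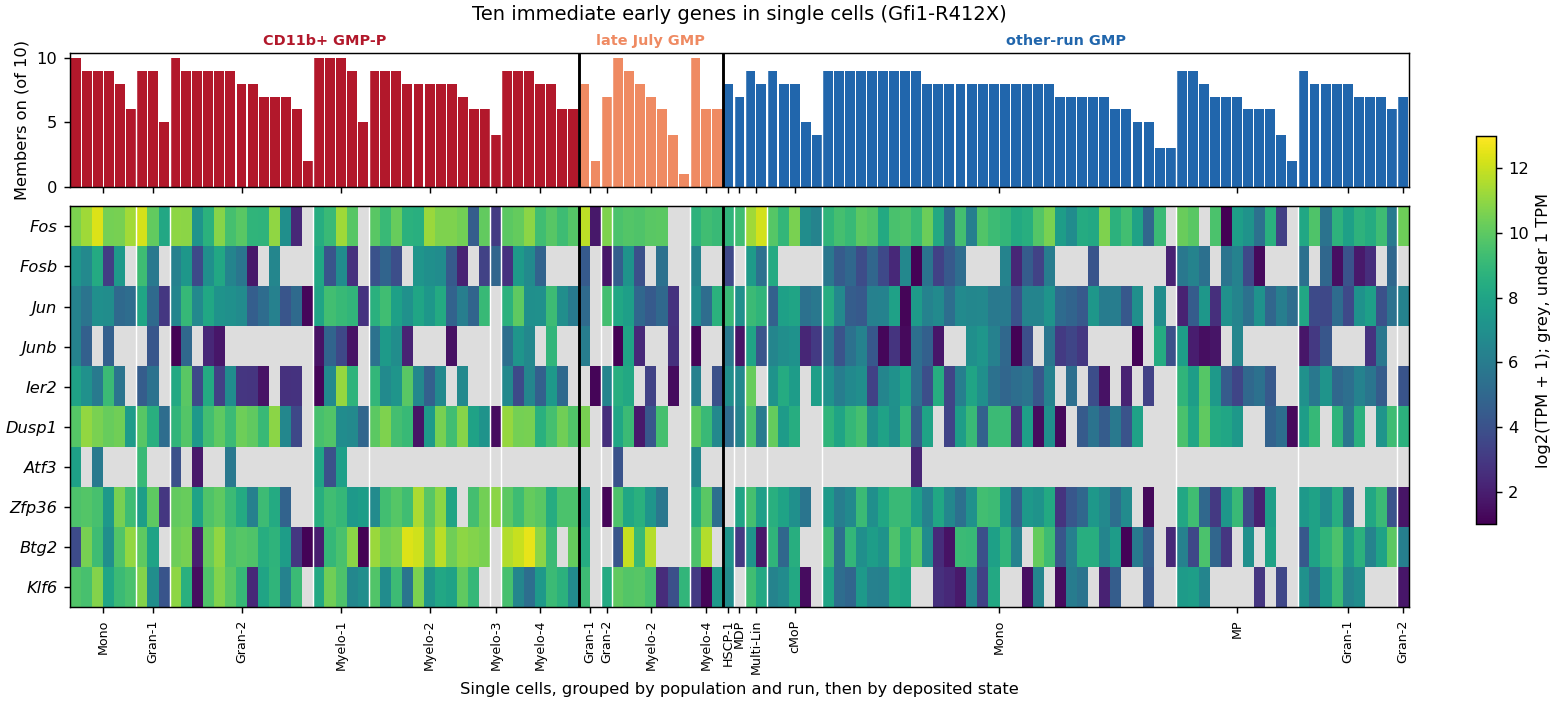
Members in every cell. Columns are the 121 cells, ordered by population and run and then by deposited state; the upper bars give members on per cell (of 10), and the lower panel gives the level of each member as log2(TPM + 1), grey where it was under 1 TPM. The Atf3 row is grey except in 12 cells, and Klf6, Dusp1, Zfp36 and Btg2 are brighter in CD11b+ GMP-P than in other-run GMP.

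Counting members at 100 TPM or more instead, a level chosen after the values had been seen, gave larger differences of means between CD11b+ GMP-P and both GMP sets. CD11b+ GMP-P cells had 5.57 ± 2.18 members at that level, late July GMP cells 3.54 ± 2.50 and other-run GMP cells 3.48 ± 2.09. The differences of means at that level were 2.03 against late July GMP and 2.08 against other-run GMP. No other genes were counted at 100 TPM, so these differences have no background beside them.

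Among the AP-1 subunits, Fos and Jun were on in nearly every cell, and Fosb and Junb in part of the cells. Fos, the founding leucine zipper partner of Jun, was on in 44 of 46 CD11b+ GMP-P cells (95.7% of them), 11 of 13 late July cells (84.6%) and 59 of 62 other-run cells (95.2%). Its median TPM among on-cells was 984 in CD11b+ GMP-P (highest cell 5304), 822 across late July GMP (highest 3605) and 468 across other-run GMP (highest 4574). The difference of mean log2(TPM + 1) was 1.34 over late July GMP and 1.07 over other-run GMP. Jun, which can also pair with itself, was on in 97.8%, 84.6% and 96.8% of cells, at a median of 123, 38.1 and 77.4 TPM among on-cells. Its difference was 1.26 over late July GMP and 0.82 over other-run GMP.

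Fosb, a close relative of Fos, was on in 34 of 46 CD11b+ GMP-P cells (73.9%, 58.9 to 85.7), 7 of 13 late July cells (53.8%, 25.1 to 80.8) and 38 of 62 other-run cells (61.3%, 48.1 to 73.4). Its median TPM among on-cells was 80.6, 22.8 and 26, and its level difference was 1.56 over late July GMP and 1.41 over other-run GMP. Junb, a Jun protein that in many settings opposes Jun, was on in a smaller share of CD11b+ GMP-P cells than of other-run GMP cells. It was on in 21 of 46 CD11b+ GMP-P cells (45.7%, 30.9 to 61), 6 of 13 late July cells (46.2%, 19.2 to 74.9) and 43 of 62 other-run cells (69.4%, 56.3 to 80.4). Its median TPM among on-cells was 24.8, 4.84 and 16.8, so the on-cells themselves were not lower in CD11b+ GMP-P. Its level difference over all cells was 0.40 over late July GMP and -0.93 over other-run GMP, below the median kept gene of the second contrast (-0.69). Among Fos, Fosb, Jun and Junb, it was Junb and Fosb that differed most in the share of on-cells between CD11b+ GMP-P and other-run GMP, in opposite directions, with overlapping intervals.

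Atf3, a leucine zipper protein of the CREB and ATF family that is induced by stress, was off in most cells. It was on in 9 of 46 CD11b+ GMP-P cells (19.6%, 9.36 to 33.9), 2 of 13 late July cells (15.4%, 1.92 to 45.4) and 1 of 62 other-run cells (1.61%, 0.0408 to 8.66). Its 9 on-cells in CD11b+ GMP-P ran from 2.48 to 548 TPM with a median of 61.5, and the 1 other-run cell had 3.68 TPM. Atf3 passed the filter of 10% of cells only through CD11b+ GMP-P and so had to differ; counts are also given without it. All 9 of these CD11b+ GMP-P cells had every member but Junb on, and 5 had Junb on too; they averaged 8.56 of the other 9 members, against 7.49 in the 37 cells with Atf3 off.

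The feedback genes differed in amount in the same direction against both GMP sets. Dusp1, a phosphatase that inactivates MAP kinases, was on in 45 of 46 CD11b+ GMP-P cells (97.8%, 88.5 to 99.9), 10 of 13 late July cells (76.9%, 46.2 to 95) and 51 of 62 other-run cells (82.3%, 70.5 to 90.8). Its median TPM among on-cells was 703, 420 and 206. Its level averaged 8.55 ± 2.56 log2(TPM + 1) in CD11b+ GMP-P, 5.57 ± 4.11 across late July GMP and 5.76 ± 3.38 across other-run GMP, a difference of 2.98 and 2.79. Zfp36 encodes tristetraprolin, which binds AU-rich elements and promotes decay of cytokine and immediate early mRNAs. It was on in 93.5%, 76.9% and 87.1% of cells, at a median of 654, 243 and 165 TPM among on-cells. Its level difference was 2.78 over late July GMP and 2.48 over other-run GMP.

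Ier2, a short nuclear protein, differed in sign between the contrasts, as Junb did. It was on in 78.3%, 61.5% and 82.3% of cells, at a median of 98.7, 46 and 66.9 TPM among on-cells, and its level difference was 1.67 over late July GMP but -0.13 over other-run GMP. The second value turned to 0.29 when TPM was recomputed without the 20 most abundant genes of each cell. Btg2, an antiproliferative protein that associates with the mRNA deadenylase complex, was on in 43 of 46 CD11b+ GMP-P cells (93.5%, 82.1 to 98.6), 7 of 13 late July cells (53.8%, 25.1 to 80.8) and 54 of 62 other-run cells (87.1%, 76.1 to 94.3). Its median TPM among on-cells was 1180 in CD11b+ GMP-P (highest 6006), 789 across late July GMP (highest 3903) and 148 across other-run GMP (highest 1152). In late July GMP Btg2 was thus off in nearly as many cells as it was on in, and abundant where on. Its level difference was 3.23 over late July GMP and 2.65 over other-run GMP.

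Klf6, a zinc finger transcription factor, was on in nearly every cell of CD11b+ GMP-P and of late July GMP, and in fewer cells of other-run GMP. It was on in 43 of 46 CD11b+ GMP-P cells (93.5%, 82.1 to 98.6), 12 of 13 late July cells (92.3%, 64 to 99.8) and 41 of 62 other-run cells (66.1%, 53 to 77.7). Its median TPM among on-cells was 455, 400 and 81.3. The level difference of CD11b+ GMP-P was 1.27 over late July GMP and 3.93 over other-run GMP, and late July GMP itself was 2.66 above other-run GMP. No other member was 1 or more higher in late July GMP than in other-run GMP, where 3.7% of kept genes were. Junb (-1.33) and Ier2 (-1.80) were 1 or more lower there, as were 44.8% of kept genes.

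**Figure D2:**
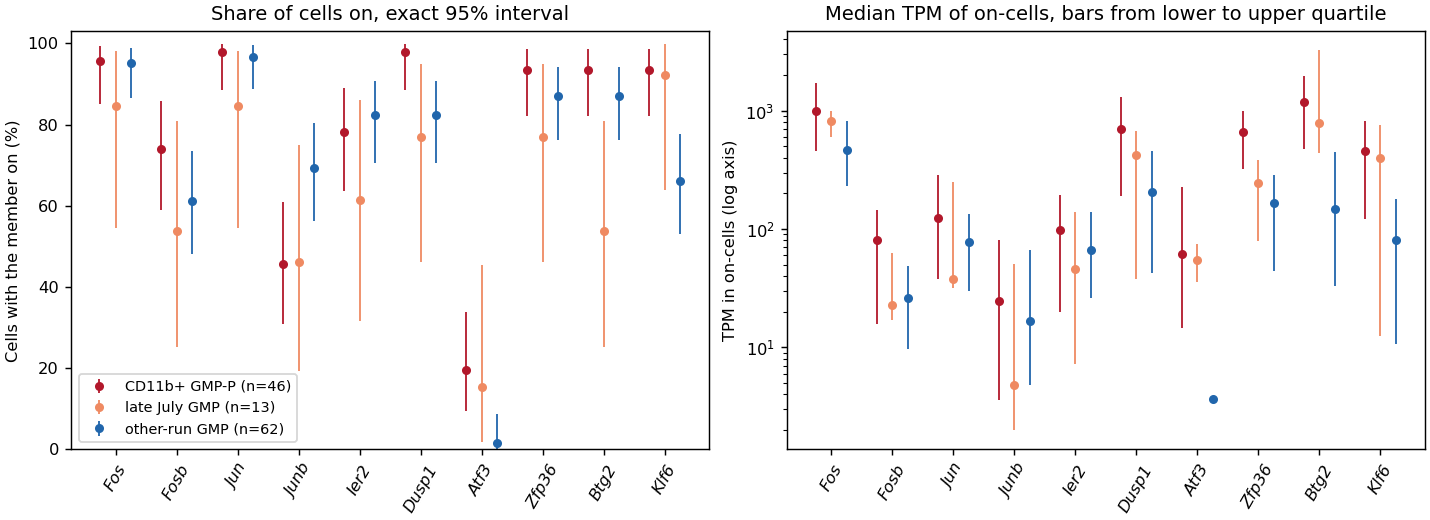
Share of cells with each member on (left, percent with exact 95% intervals) and TPM among on-cells (right, log axis, median with bars from lower to upper quartile), for CD11b+ GMP-P, late July GMP and other-run GMP. Shares of Fos and Jun are above 80% in all sets, while the on-cell medians of Dusp1, Zfp36 and Btg2 descend in that order of sets; the right-hand Atf3 point of other-run GMP is 1 cell.

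Counted together, 7 of 10 members had a mean level at least 1 higher (log2(TPM + 1)) in CD11b+ GMP-P than in all GMP, where 2.3% of the 9150 kept genes did. A gene was kept when 10% or more of a population's cells had it on, and all 10 members were kept. Against late July GMP 8 of 10 members passed that size, with 11.1% of kept genes, and against other-run GMP 7 of 10, with 2.77%. Without Atf3 the counts were 6, 8 and 6 of 9. With a pseudocount of 10 in place of 1 they were 4, 3 and 4 of 10. The median difference over the members was 1.27, 1.45 and 1.30 in these contrasts, beside -0.56, 0.18 and -0.69 over all kept genes. The 3 contrasts share the CD11b+ GMP-P cells. Against other-run GMP the differences of Klf6, Dusp1, Btg2 and Zfp36 were larger than those of 99.7%, 99.4%, 99.3% and 99.3% of kept genes. Against late July GMP, those of Btg2, Dusp1 and Zfp36 were larger than 99.9%, 99.9% and 99.8% of them, and that of Klf6 than 93.4%.

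Amount and share can be separated. The share of on-cells was at least 10 percentage points higher in CD11b+ GMP-P than in late July GMP for 7 of 10 members, where 26% of kept genes were, and than in other-run GMP for 4 of 10 (Fosb, Dusp1, Atf3 and Klf6), where 4% were. Without Atf3 these counts were 7 and 3 of 9. The median TPM of on-cells was at least 2-fold higher than in late July GMP for 5 of the 9 members with enough on-cells to compare (Fosb, Jun, Junb, Ier2 and Zfp36), beside 30.1% of the genes compared, and than in other-run GMP for 6 of 9, beside 21.7%. Those 6 were Fos, Fosb, Dusp1, Zfp36, Btg2 and Klf6. Higher levels against other-run GMP were hence seen also among cells that had the member on.

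**Figure D3:**
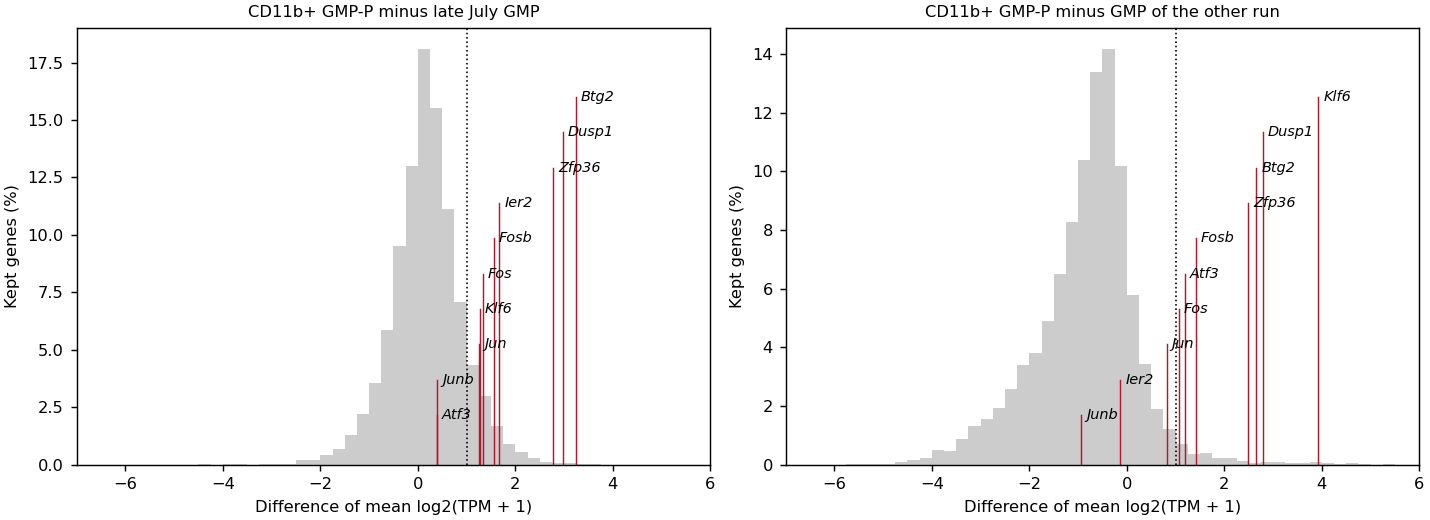
Level differences on the log2(TPM + 1) scale for CD11b+ GMP-P minus late July GMP (left) and minus other-run GMP (right). Grey bars give the percent of the 9150 kept genes in each interval, red lines the members, and the dotted line a difference of 1; 8 members lie right of it on the left and 7 on the right, where Klf6 is farthest out at 3.93.

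Neither run nor state accounted for most of the spread in the number of members on. Of its variance over the 121 cells, 5.58% lay between the 3 run groups, 10.5% between states within runs (19 run-by-state groups) and 83.9% among cells of the same run and state. For the number of genes detected the same split was 43.2%, 31.8% and 25%. For the mean level of the members it was 15.8%, 12.1% and 72.1%. Klf6 had the largest part between runs, 26.3%, followed by Dusp1 (16%), Zfp36 (15%) and Btg2 (12.4%). The largest parts between states within runs were those of Jun (27.5%), Atf3 (23.5%) and Fos (20.9%). Over all kept genes the median parts were 4.38% between runs and 15% between states within runs, so 7 of 10 members were above the typical gene in the first and 5 of 10 in the second. With many states of few cells, some part between states arises from cell-to-cell spread alone.

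Within CD11b+ GMP-P, the states had similar numbers of members on, and the states are the authors' own names for these same cells. Means were 8.50 ± 1.38 in Mono (n = 6), 7.67 ± 2.31 in Gran-1 (n = 3), 7.69 ± 2.06 in Gran-2 (n = 13), 8.80 ± 2.17 in Myelo-1 (n = 5), 7.82 ± 1.08 in Myelo-2 (n = 11) and 7.86 ± 1.35 in Myelo-4 (n = 7). The 1 Myelo-3 cell, with 967 genes detected, had 4 on. The cells of Myelo-1 had 5, 9, 10, 10 and 10 on, so 3 of the 5 CD11b+ GMP-P cells with every member on were in that state. Within other-run GMP the means were 7.50 ± 1.63 in Mono (n = 32), 6.45 ± 2.07 in MP (n = 11), 7.56 ± 0.88 in Gran-1 (n = 9) and 6.80 ± 2.17 in cMoP (n = 5). Cells with 2 to 5 on were found in Mono, MP and cMoP of that run, beside cells with 9 on in the same states.

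**Figure D4:**
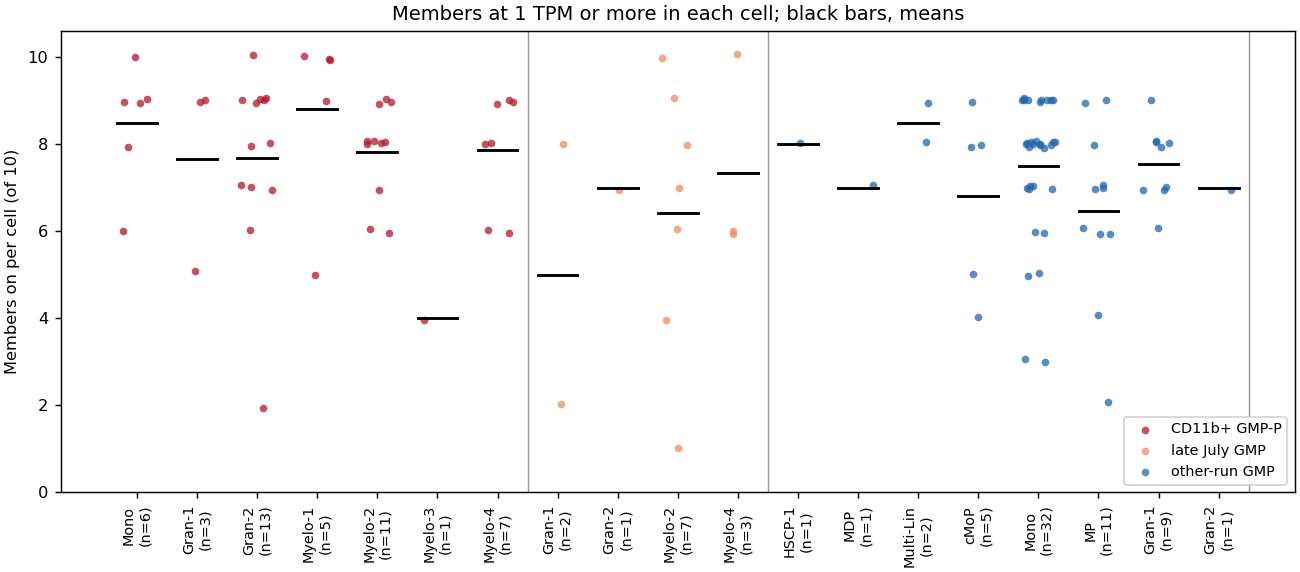
Members on per cell (of 10) by deposited state within CD11b+ GMP-P, late July GMP and other-run GMP. Each point is a cell, shifted slightly to keep points apart, and black bars are means; cells with 9 on stand beside cells with 3 or fewer in other-run Mono and in CD11b+ GMP-P Gran-2.

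Single members were on in different shares of some states, most of which held few cells. Atf3 was on in 3 of 5 Myelo-1 cells (60%, 14.7 to 94.7), 2 of 6 Mono cells and 3 of 13 Gran-2 cells of CD11b+ GMP-P, and in 1 of its 3 Gran-1 cells. It was on in 0 of 11 Myelo-2 cells and in 0 of 7 Myelo-4 cells, counts that leave room for shares of up to 27.3% and 42.9% by counting error. Junb was on in 5 of 5 cMoP cells and 24 of 32 Mono cells (75%) of other-run GMP, and in 4 of 13 Gran-2 cells (30.8%) of CD11b+ GMP-P. Klf6 was on in 5 of 11 MP cells (45.5%) of other-run GMP and in 7 of 7 Myelo-4 cells of CD11b+ GMP-P. These Junb and Klf6 shares come from states of different populations and runs, so state cannot be told apart from population and run in them. Within Mono alone, Junb was on in 50% of CD11b+ GMP-P cells and 75% of GMP cells, and Klf6 in 100% and 68.8%. Within CD11b+ GMP-P, Jun had its highest on-cell median in Myelo-1, 483 TPM, and 64.8 TPM in Mono. Btg2 had its highest there in Myelo-4, 2543 TPM over 6 cells, and 505 TPM in Myelo-1.

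The state Mono held cells of CD11b+ GMP-P and of other-run GMP, which allows the populations to be set side by side within 1 state at similar numbers of genes detected (median 4434 and 4672). The 6 CD11b+ GMP-P cells had 8.50 ± 1.38 members on and the 32 GMP cells 7.50 ± 1.63. The mean level was at least 1 higher in CD11b+ GMP-P for 8 of 10 members (7 of 9 without Atf3), where 17.4% of kept genes were, and the median over the members was 2.56 beside -0.15 over all kept genes. Klf6 was on in all 6 CD11b+ GMP-P cells, at a median of 744 TPM, and in 22 of 32 GMP cells, at a median of 7.06 TPM over all 32 (highest 314). Its level difference was 5.95, followed by Dusp1 (4.50), Zfp36 (3.20), Fosb (2.80) and Fos (2.67). Dusp1 had a median of 1273 TPM in the 6 CD11b+ GMP-P cells and 91.0 TPM in the 32 GMP cells. Fos had a median of 2064 TPM and 515 TPM in the same cells. Jun differed by 0.41 and Junb by -0.46. Summed monocyte progenitor markers were close in the CD11b+ GMP-P and GMP cells of this state, at medians of 2221 and 2122 TPM, and maturing neutrophil markers were at 3034 and 475 TPM. Run and population remain tied in this comparison too.

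In Myelo-2 the GMP cells were all from the late July runs. The 11 CD11b+ GMP-P cells had 7.82 ± 1.08 members on and the 7 late July GMP cells 6.43 ± 3.10 (1, 4, 6, 7, 8, 9 and 10). This difference of 1.39 turned to -0.29 when any TPM above 0 was called on. The mean level was at least 1 higher in CD11b+ GMP-P for 6 of 10 members, beside 9.38% of kept genes. Btg2 stood out: it was on in 11 of 11 CD11b+ GMP-P cells, at a median of 1731 TPM, and in 4 of 7 GMP cells, at a median of 17.7 TPM over all 7 (highest 3903), a level difference of 5.62. Dusp1 (3.81), Zfp36 (2.88), Jun (2.64), Fos (2.35) and Ier2 (2.10) followed. Klf6 differed by -0.10 in this state (medians of 295 TPM in CD11b+ GMP-P cells and 705 TPM in GMP cells), although it was the member with the largest difference within Mono. Maturing neutrophil markers summed to medians of 465646 and 453794 TPM in these CD11b+ GMP-P and GMP cells.

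Most pairs of members were on together in more cells than their separate shares would give. For each of the 45 pairs the phi coefficient, a correlation of on and off over cells, was computed within a run group. Its median was 0.24 in CD11b+ GMP-P, 0.39 across late July GMP and 0.09 across other-run GMP. It was above 0 in 38, 38 and 41 of 45 pairs, but many of these values rest on few cells. In CD11b+ GMP-P, Jun and Dusp1 were off in 1 cell each, Fos in 2, and Zfp36, Btg2 and Klf6 in 3 each. In other-run GMP every pair with Atf3 rests on the 1 cell that had Atf3 on. The covariances between members made up 64.6%, 74.9% and 51.7% of the variance of the number on. Neither phi nor this covariance part was computed for other genes, so these values have no background beside them. As Spearman correlations of levels the pairs had medians of 0.30, 0.33 and 0.24, beside 0.08, 0.03 and 0.03 over all pairs of kept genes. The kept genes were not matched to the members in their share of on-cells, so they are only a loose reference. The number on also correlated with genes detected, at rho 0.37, 0.29 and 0.21 in the same run groups. Whether depth plays a part in the values on pairs was not tested.

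The pair with the highest phi in CD11b+ GMP-P was Fos and Dusp1 (0.70), with both on in 44 cells, Dusp1 alone in 1 and neither in 1, so this value rests on very few off-cells. Junb and Ier2 were both on in 20 CD11b+ GMP-P cells, Junb alone in 1, Ier2 alone in 16 and neither in 9, and their levels had the highest Spearman correlation of any pair there (0.63). Fos and Fosb followed among AP-1 subunits (0.57), and no cell of CD11b+ GMP-P had Fosb on without Fos. In late July GMP, Dusp1 and Zfp36 were on in the same 10 cells and off in the same 3. In other-run GMP the highest phi was that of Ier2 and Zfp36 (0.45), with 48 cells having both, 3 Ier2 alone, 6 Zfp36 alone and 5 neither. Ier2 and Klf6 had the highest correlation of levels there (0.50).

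**Figure D5:**
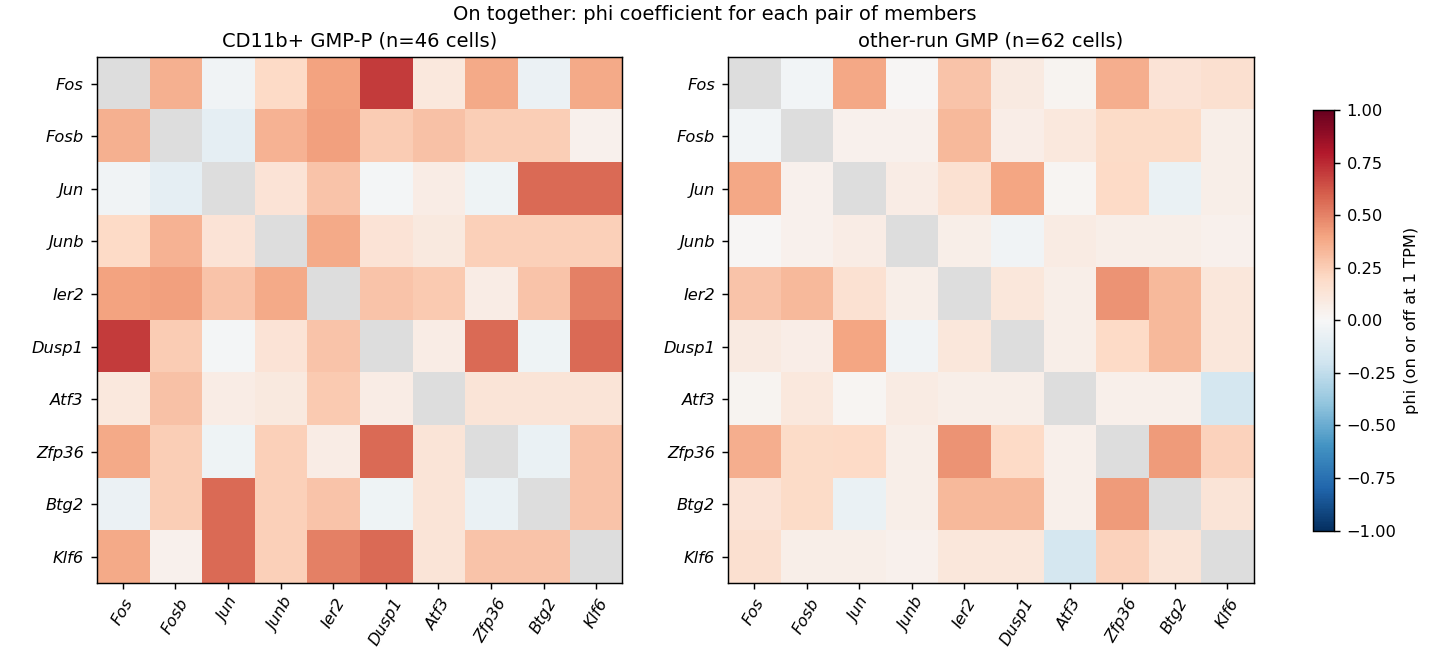
Phi coefficient of being on or off for each pair of members in CD11b+ GMP-P (left) and other-run GMP (right), blue below 0 and red above. Most squares are red in both; the darkest is Fos with Dusp1 on the left (0.70), while Junb and Atf3 rows are pale on the right.

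The most frequent combination in both large sets was every member on except Atf3, found in 13 of 46 CD11b+ GMP-P cells and 13 of 62 other-run GMP cells. In CD11b+ GMP-P the next were Junb and Atf3 off (7 cells), none off (5 cells) and Junb alone off (4 cells), among 17 combinations. In other-run GMP they were Fosb and Atf3 off (6 cells), Junb and Atf3 off (5 cells) and Atf3 and Klf6 off (4 cells), among 31 combinations. Late July GMP had 11 combinations in 13 cells. Junb (18.8%), Ier2 (17.8%) and Fosb (16.9%) carried the largest parts of the variance of the number on in CD11b+ GMP-P, and Fosb (15.2%), Ier2 (14.7%), Zfp36 (13.5%) and Klf6 (13.4%) in other-run GMP.

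Among the other genes on in at least 20% of cells of both large runs, those that followed the number of members on most closely, by the mean of the 2 within-run Spearman correlations, included Ppp1r15a (0.40), which encodes a phosphatase subunit acting on the translation factor eIF2 alpha, Ss18 (0.39), the chemokine gene Ccl3 (0.39), Egr1 (0.38), a zinc finger immediate early factor, Rhob (0.37), a small GTPase, the co-chaperone gene Dnajb6 (0.36) and the selenoprotein gene Sepw1 (0.36). The median over the 5007 genes compared was 0.08, and the genes named were picked as the highest of these. The mean hid uneven runs for some of them. Ss18 had 0.59 in CD11b+ GMP-P and 0.18 in other-run GMP, and Egr1 0.25 and 0.50, whereas Ppp1r15a had 0.41 and 0.39. Recomputed with other settings, the list of the 8 highest genes was counted as changed in 3 cases and as the same in 1. Ss18, Dnajb6 and Sepw1 also correlated with genes detected in CD11b+ GMP-P (0.44, 0.47 and 0.53), whereas Ccl3 (0.09) and Egr1 (0.09) did so weakly. Ppp1r15a was at a mean level of 4.77 in CD11b+ GMP-P, 1.57 across late July GMP and 3.02 across other-run GMP, and Egr1 at 6.09, 3.60 and 5.27 in the same sets, both lowest in late July GMP.

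Lists of other genes of the response were read on the same scale. Of 31 further immediate early genes 24 were kept. Of these, 7 were at least 1 higher and 1 at least 1 lower in CD11b+ GMP-P than in GMP (median 0.41). Over all kept genes 2.3% were higher and 28.8% lower by that much. Against late July GMP 5 of the 24 were at least 1 higher and 0 lower, beside 11.1% and 5.08% of kept genes. Their median there was 0.14, beside 0.18 over all kept genes. Klf2, a relative of Klf6, was 2.73 higher and the stress gene Gadd45a 2.32 higher, but against late July GMP they differed by 0.53 and -0.38. Myc, which drives growth, differed by -3.22, and by -0.64 against late July GMP. Of 20 early NF-kB and cytokine genes 12 were kept. In the contrast with GMP 5 of them were at least 1 higher and 1 lower (median 0.72), beside 2.3% and 28.8% of kept genes. Among the 5 were the NF-kB inhibitor Nfkbia (2.69), Nfkbiz (2.56) and Ccl3 (2.16). Against late July GMP, 1 of these 12 was at least 1 higher, which was Ccl3 (2.93), beside 11.1% of kept genes. The kinases and factors that act before the members stood near the background of all kept genes. Of 19 kept MAP kinase and serum or cAMP response genes 0 were at least 1 higher and 4 lower against GMP (median -0.44, beside -0.56 over all kept genes), including Mapkapk2 (-1.97) and Mapk14 (-1.74). Against late July GMP 1 was higher and 1 lower, beside 11.1% and 5.08% of kept genes. Within Mono 5 were higher and 5 lower, beside 17.4% and 18.8% of kept genes.

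Among 18 kept relatives of the members, 1 was at least 1 higher (Klf2, which is also counted above) and 2 lower, Zfp36l2 (-2.87) and Batf (-1.13). Zfp36 and its relative Zfp36l2 thus differed in opposite directions between CD11b+ GMP-P and GMP. Of 7 kept genes of the integrated stress response, 2 were higher, Ppp1r15a (2.0) and Ddit3 (1.80), and 0 lower. Of 13 kept heat shock genes, 2 were higher and 5 lower (median -0.48), with Hspe1 at -2.78. Within Mono, 6 of these 13 were at least 1 higher and 1 lower (median 0.87), beside 17.4% and 18.8% of kept genes; their part in the members' values there was not tested. Of 10 housekeeping genes, 0 were higher and 4 lower (median -0.74). Over all kept genes 2.3% were at least 1 higher and 28.8% at least 1 lower in CD11b+ GMP-P than in GMP.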

How the data were processed

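The authors deposited a table of log2 expression per gene and cell; after undoing the log and taking off 1, cells summed to 999517 to 1001449, as TPM does. The submitters' processing notes name Bowtie2, RSEM and mm9, with settings, versions and the assignment of states not given in the sources used here. A second deposited table of the authors, whose values are of another kind (names), gives each cell's state, used as written.

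Python 3.11.15 with pandas 2.3.3, numpy 2.4.6 and scipy 1.17.1 was used. On meant 1 TPM or more; levels are log2(TPM + 1), a scale that understates differences of low genes. Genes on in at least 10% of cells of either population were kept, and a difference of 1 in mean level was counted. Medians of on-cells were compared only where each side had at least 5 on-cells. Shares carry Clopper-Pearson 95% intervals, and a share of 0 the limit set by 3 cells. The computation of differences was tested on simulated data. Members and gene lists were chosen with earlier results of these data known. Named genes were the members, up to 3 kept genes per list with the largest difference in size, and the 8 genes most like the number on, of which 1 is not reported here. Promoter stretches are RefSeq sequence on GRCm38.p6, another build than the authors' mm9.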

Additional observations from a re-analysis of the deposited data

Results flagged for a closer look

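Among 6 sets of 4 to 10 cells of the same run and state, 1 held a cell set apart in its number of members on. In Myelo-1 of CD11b+ GMP-P a cell had 5 members on while the other 4 had 9, 10, 10 and 10. The gap to the nearest cell was 0.80 of the whole range, above the limit of 0.71 for 5 cells, and chance sets apart about 1 in 20 such sets. With 6 sets looked at, 1 set apart is weak ground. That limit is made for continuous values, while these are whole counts that cannot exceed 10, so it is only a rough guide. The cell had Fos, Fosb, Junb, Ier2 and Atf3 off, and Fos, Fosb, Junb and Ier2 were on in the other 4 Myelo-1 cells.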

How the results depend on the processing

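Each result was recomputed with other thresholds, pseudocounts, filters, scalings or sets of cells. Each difference in the number on was also recomputed with each of the 10 members left out in turn, and these values are among the 143 below. Of 143 recomputed values on the number on or on counts of members, 126 moved by no more than 1.5 times, 16 moved more and 1 reversed; of 330 on member levels, 71 moved by more than 1.5-fold and 0 differences of 1 or more changed sign. These totals leave out the median phi, the parts of the spread and the list of genes most like the number on. That list changed in 3 recomputations and was the same in 1. The cause of each larger move was not tested. With any TPM above 0 called on, the difference in members on was 0.14 against late July GMP and 1.61 within Mono, and within Myelo-2 it turned to -0.29, where 1.39 was the value at 1 TPM. With 10 TPM called on it was 1.99 within Mono. With 100 TPM called on, chosen after seeing the data, it was 2.07 against all GMP, 2.08 against other-run GMP, 3.05 within Mono and 2.56 within Myelo-2. In cells with 2000 to 5000 genes it was 0.93 against other-run GMP; without Myelo cells it was 2.24 against late July GMP; without Klf6 it was 0.33 against other-run GMP; and as a difference of medians it was 0.00 against all GMP and against other-run GMP. With a pseudocount of 10, members at least 1 higher numbered 4 against all GMP, 3 against late July GMP and 4 against other-run GMP, and by the log2 ratio of mean TPM 5 against late July GMP. Upper quartile scaling put the median kept gene at -0.63, 0.14 and -0.78 in the 3 contrasts, and leaving out each cell's 20 most abundant genes put it at -0.53, 0.12 and -0.64. Without the 3 Jul31_2017 cells the difference against late July GMP was 2.09. No paired analysis was possible because no label names an animal, and no difference between groups was tested.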

Other observations

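The late July run names differed between themselves: the 10 July31 cells had 5.80 ± 2.66 members on and the 3 Jul31_2017 cells 8.67 ± 2.31, with 6, 10 and 10 on. Both late July GMP cells with every member on, Atf3 included, carried the Jul31_2017 name.

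In the contrast of CD11b+ GMP-P with GMP, S phase genes lay below 0, and so did most kept genes. Of kept genes 17.2% lay above 0, and of the members 9 of 10. Of 15 S phase genes, 0 were at least 1 higher and 8 at least 1 lower in CD11b+ GMP-P than in GMP. Among kept genes 2.3% were higher and 28.8% lower by that much. The S phase median was -1.27, beside -0.56 over all kept genes, with the helicase subunits Mcm7 at -2.35 and Mcm3 at -2.12. Against late July GMP, 2 S phase genes were higher and 1 lower (median 0.24), beside 11.1% and 5.08% of kept genes. Within Mono 6 were higher and 2 lower, beside 17.4% and 18.8% of kept genes. Within Myelo-2 2 were higher and 10 lower, Mcm7 at -5.10, beside 9.38% and 18.4%. Members were mostly higher in both states. Of 15 G2 and M phase genes 0 were higher and 1 lower against GMP (Cdc20, -1.21). Within Mono 8 of these 15 were higher and 1 lower (median 1.19), beside 17.4% and 18.8% of kept genes, and within Myelo-2 3 were higher and 6 lower (median -0.69), beside 9.38% and 18.4%. Within Mono 6 of 7 kept genes of the integrated stress response were at least 1 higher in CD11b+ GMP-P, among them Ppp1r15a (3.99), Ddit3 (3.40) and Herpud1 (3.12). Nfkbia was 4.97 and Ccl3 4.47 higher there.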
